A study of Rattus norvegicus with 9 samples.

Results

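The 4 matrix metalloproteinase genes *Mmp2*, *Mmp14*, *Mmp9* and *Mmp3* and the 3 genes of their tissue inhibitors, *Timp1*, *Timp2* and *Timp3*, were followed in an aging laryngeal muscle of the rat. They were taken as every probe set whose single annotated symbol was one of these 7 names, which gave 9 of 8740 probe sets on the array once control probe sets were left out. *Mmp2* and *Timp1* had 2 probe sets each and the others 1. The muscle was the posterior cricoarytenoid, which opens the vocal folds, from animals at 6, 18 or 30 months of age. There were 3 Affymetrix Rat Genome U34 arrays per age, and the RNA on each was combined from 4 animals, so differences between arrays of an age are differences between pools. Age was the only condition, with no treatment or genetic change in the labels, and 6 months is the baseline of the series. Strain and sex were not given in the sources used here.

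Matrix metalloproteinases are zinc-dependent enzymes that are secreted or held at the cell surface. They are made as inactive precursors and cut collagens, gelatin, proteoglycans and other matrix proteins once their propeptide is removed. Tissue inhibitors of metalloproteinases bind the active site of these enzymes, so that the rate of matrix turnover depends on both sides. The pair of *Mmp2* and *Timp2* is linked further, because the membrane enzyme encoded by *Mmp14* activates the precursor of MMP2 through a bound TIMP2 molecule. In skeletal muscle, connective tissue cells are a main source of MMP2, MMP14 and the inhibitors, while *Mmp9* is best known from inflammatory cells and from injured fibres.

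Signals are MAS 5.0 values, a robust average over the probes of a probe set on a linear scale. Levels of different probe sets depend on their probes and were not set against each other. The deposited table holds no detection calls, so a weak signal could not be called absent. The arrays had nearly the same 2% trimmed mean signal, 500.9 to 501.0. The medians over all probe sets were 120.1 to 124.8 at 6 months, 104.2 to 115.7 at 18 months and 104.8 to 112.2 at 30 months. Every older array thus had a median below those of 6 months. Log2 signals correlated at 0.978 to 0.986 between arrays of the same age and at 0.975 to 0.989 between ages. Genes on 1 array are no independent replicates, so these r values carry no test. Skeletal muscle markers were strong throughout: the summed signal of 13 markers was 194100 to 227000 at 6 months, 227900 to 275800 at 18 months and 237200 to 257200 at 30 months. Cartilage markers, 5 on the array, were weak, and none of the 5 passed the filter on signal. Their sum was 132.1 to 153.5 at 6 months, 83.3 to 141.8 at 18 months and 92.7 to 102.8 at 30 months. It was thus lower on every array of 30 months than on any array of 6 months. The part of cartilage in other signals was not tested.

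Promoter sequences of RefSeq, build GRCr8, were at hand for 4 of the 7 genes and are shown because *Timp2*, *Mmp3* and the stronger probe set of *Timp1* had signals at 30 months below all those of 6 months, whereas the signals of *Timp3* and of the weaker *Timp1* probe set overlapped. Each line gives the 250 bases before the annotated start of the first entry for the gene, and any other starts were not read. Capitals mark every match to TGANTCA (the AP-1 site), GGGCGG (the GC box) or TATAAA (the TATA box) on either strand. No matches overlapped each other.
*Timp1* (chrX:3771123-3771372, minus strand): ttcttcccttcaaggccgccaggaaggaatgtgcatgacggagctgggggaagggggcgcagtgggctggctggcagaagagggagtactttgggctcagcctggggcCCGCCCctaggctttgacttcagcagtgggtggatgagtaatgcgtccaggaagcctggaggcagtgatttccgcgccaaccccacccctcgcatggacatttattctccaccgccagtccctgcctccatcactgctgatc
*Timp2* (chr10:104089215-104089464, minus strand): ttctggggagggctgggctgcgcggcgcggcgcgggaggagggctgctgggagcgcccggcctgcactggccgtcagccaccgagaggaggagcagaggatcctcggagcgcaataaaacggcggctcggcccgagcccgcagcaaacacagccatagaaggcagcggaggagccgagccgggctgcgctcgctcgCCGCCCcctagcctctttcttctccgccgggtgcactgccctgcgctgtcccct
*Timp3* (chr7:19459559-19459808, minus strand): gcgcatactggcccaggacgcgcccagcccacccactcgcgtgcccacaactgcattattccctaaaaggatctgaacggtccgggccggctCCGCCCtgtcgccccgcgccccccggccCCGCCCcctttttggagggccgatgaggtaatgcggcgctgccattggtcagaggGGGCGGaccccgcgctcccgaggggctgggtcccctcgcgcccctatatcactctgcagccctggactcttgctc
*Mmp3* (chr8:12925031-12925280, plus strand): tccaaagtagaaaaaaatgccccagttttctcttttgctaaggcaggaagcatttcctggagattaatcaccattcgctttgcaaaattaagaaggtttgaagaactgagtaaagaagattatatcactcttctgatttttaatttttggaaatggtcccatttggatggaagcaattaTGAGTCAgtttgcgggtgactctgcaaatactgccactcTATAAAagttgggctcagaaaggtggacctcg
The *Mmp3* window held TGAGTCA from 71 bases before the start and TATAAA from 32 bases before it. The inhibitor windows held no exact match to either of these motifs, and near matches were not searched for. Each held the GC box, with 1 match in *Timp1*, 1 in *Timp2* and 3 in *Timp3*. Over 33469 rat promoters of the same length, 6.34% held TGANTCA, 30.5% held GGGCGG and 12.9% held TATAAA. The share of G and C was 61.2% in *Timp1*, 72% in *Timp2*, 69.6% in *Timp3* and 38.8% in *Mmp3*, against a median of 51.2% over all promoters. These matches describe letters in a window and not bound sites.

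Of the proteases, *Mmp2*, which encodes gelatinase A, had the clearest difference between ages. Its stronger probe set, U65656_at, read 545.8, 592.4 and 562.2 at 6 months, then 462.7, 358.7 and 347.2 at 18 months, then 389.7, 360.1 and 374.3 at 30 months. All 6 older arrays lay below all 3 arrays of 6 months, and the values at 18 and 30 months overlapped. The mean was 389.5 ± 63.6 at 18 months against 566.8 ± 23.6 at 6 months (SD, n = 3 arrays per age), a log2 change of -0.52 with a standard error of 0.13. At 30 months it was 375 ± 14.8 against 566.8 ± 23.6 at 6 months (SD, n = 3 each), a log2 change of -0.56 with a 95% interval of -0.84 to -0.28. By limma, a linear model fitted to log2(signal + 32) of 5244 probe sets, neither difference passed the Benjamini-Hochberg threshold of 0.05 (adjusted p = 0.298 at 18 months and 0.162 at 30 months).

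The other *Mmp2* probe set, X71466_at, was weaker and lay on the same side. It read 111.9, 148.6 and 109.0 at 6 months, then 86.7, 105.4 and 71.1 at 18 months, then 91.7, 99.6 and 80.8 at 30 months. Again no array of an older age reached the lowest array of 6 months, although the gap between 105.4 and 109.0 was small. The log2 change was -0.37 at 18 months and -0.33 at 30 months (limma adjusted p = 0.546 and 0.385). These were -0.22 and -0.20 with the larger pseudocount tried. At 30 months the change was -0.21 after quantile normalization, -0.20 after median centring and -0.22 without replicate 2 of 6 months. Both probe sets of *Mmp2* were thus lower at the older ages than at 6 months, but 18 and 30 months stood in opposite order, with the log2 difference between 30 and 18 months at -0.04 in the stronger and 0.04 in the weaker one.

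*Mmp14* encodes MT1-MMP, the membrane-bound collagenase that activates MMP2. It read 653.2, 436.7 and 395.3 at 6 months, then 425.3, 341.9 and 442.1 at 18 months, then 495.2, 294.2 and 448.1 at 30 months. The ages overlapped, and the highest value belonged to replicate 1 of 6 months. The log2 change was -0.25 at 18 months (95% interval -0.75 to 0.25) and -0.24 at 30 months (95% interval -0.75 to 0.26). Without replicate 1 of 6 months these values were -0.05 and -0.04. The change at 30 months was also -0.04 without replicate 2 of 30 months, and that at 18 months -0.15 without replicate 2 of 18 months. Leaving out replicate 3 of 6 months gave -0.39 and -0.38, and leaving out replicate 1 of 30 months gave -0.38 at 30 months. The interval at 30 months still includes the change seen for *Mmp2*.

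*Mmp3* encodes stromelysin 1, which cuts proteoglycans and fibronectin and activates other precursors of the family. It read 110.6, 107.1 and 101.8 at 6 months, then 122.4, 63.6 and 102.1 at 18 months, then 60.4, 40.6 and 86.0 at 30 months. The arrays of 30 months all lay below those of 6 months, whereas those of 18 months spread over both. The mean at 30 months was 62.3 ± 22.8 against 107 ± 4.43 at 6 months (SD, n = 3 each), 1.71-fold lower, with a log2 change of -0.58 (SE 0.21, limma adjusted p = 0.327). The size of this log2 change depended on the pseudocount, at -0.75 with 8 added to the signal and -0.31 with the larger pseudocount tried. At 18 months the log2 change was -0.14, and it was 0.06 without replicate 2 of 18 months. Leaving out replicate 1 of that age gave -0.29. It was -0.03 after quantile normalization and -0.04 after median centring.

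*Mmp9*, which encodes gelatinase B, had a weak signal, with only 19.1% of all probe sets below it. It read 20.2, 14.7 and 29.2 at 6 months, then 20.6, 31.9 and 41.5 at 18 months, then 14.7, 13.8 and 7.7 at 30 months. All arrays of 30 months were below those of 18 months, while 6 months overlapped with both. The probe set was among the weakest 40%, which were not tested, and with no filter its log2 difference between 30 and 18 months was -0.51 (limma adjusted p = 1).

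**Figure D1:**
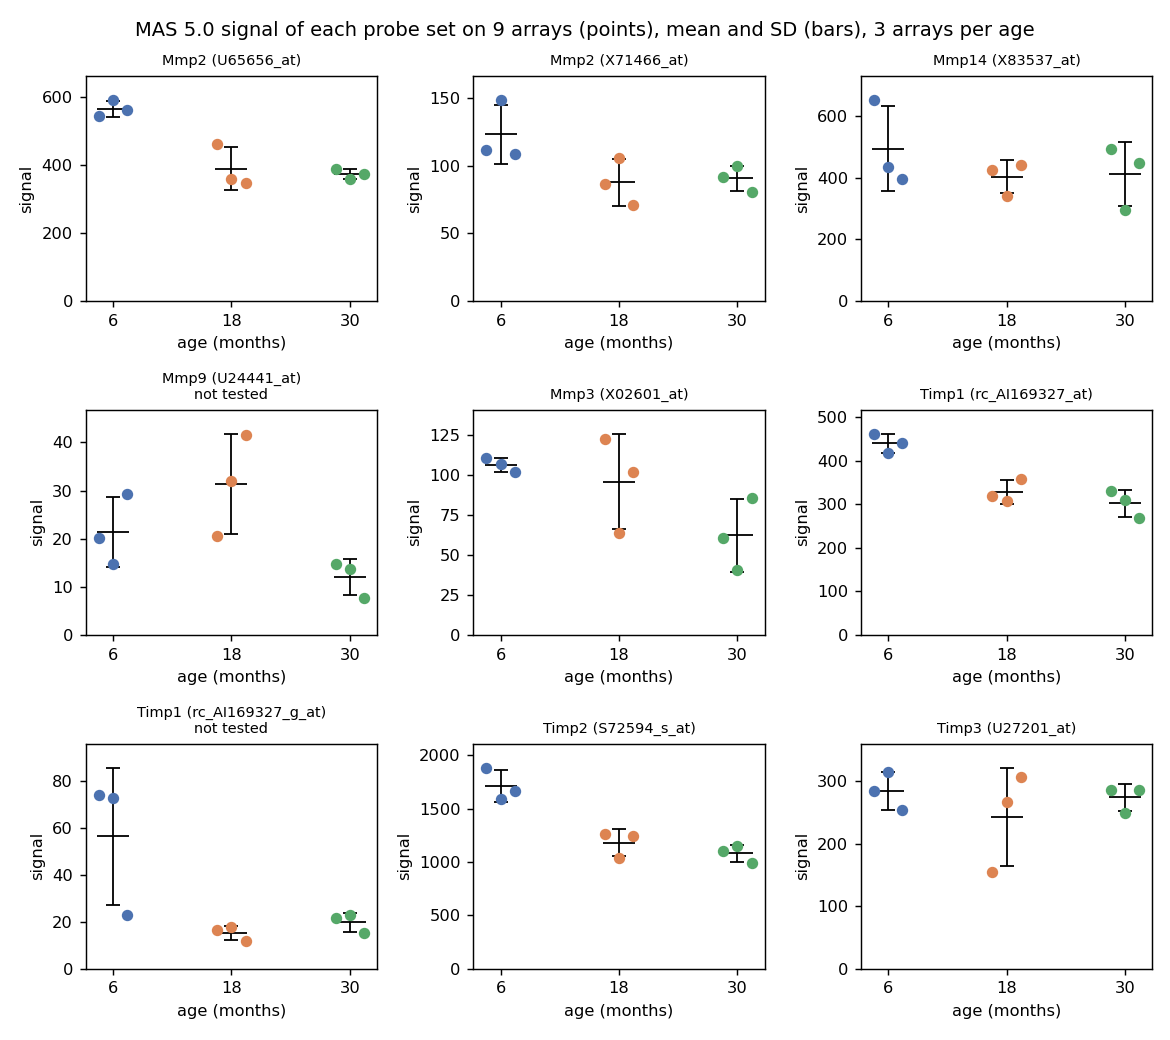
Signal of each *Mmp* and *Timp* probe set on the 9 arrays (points), with the mean and SD of 3 arrays (bars), by age in months. The older arrays of *Mmp2*, *Timp2* and the stronger *Timp1* probe set all lie below the arrays of 6 months, while *Mmp14* and *Timp3* overlap between ages.

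Among the tested inhibitor probe sets *Timp2* had the largest log2 changes against 6 months. Its product inhibits many metalloproteinases and also takes part in the activation of MMP2. The probe set read 1884.3, 1589.1 and 1665.1 at 6 months, then 1259.9, 1037.9 and 1247.0 at 18 months, then 1106.1, 1149.4 and 990.7 at 30 months. The lowest array of 6 months was above the highest of either older age, and the older ages overlapped. The mean was 1182 ± 125 at 18 months against 1713 ± 153 at 6 months (SD, n = 3 each), a log2 change of -0.53 (SE 0.13, limma adjusted p = 0.290). At 30 months it was 1082 ± 82.0 against 1713 ± 153 at 6 months (SD, n = 3 each), a ratio of 0.632. The log2 change was -0.65 with a 95% interval of -0.93 to -0.36, and the adjusted p was 0.103. When limma's variance estimate was allowed to depend on signal strength, the adjusted p at 30 months was 0.0414, the single setting of 17 in which a member passed.

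*Timp1* encodes a secreted inhibitor induced by growth factors and cytokines. The stronger probe set, rc_AI169327_at, read 461.1, 417.8 and 441.3 at 6 months, then 318.7, 306.6 and 358.4 at 18 months, then 330.0, 308.9 and 268.0 at 30 months. Its ages were separated in the same way as those of *Timp2*. The mean was 302 ± 31.5 at 30 months against 440.1 ± 21.7 at 6 months (SD, n = 3 each), a log2 change of -0.50 (SE 0.12, limma adjusted p = 0.178). The log2 change at 18 months was -0.39 (limma adjusted p = 0.431). The weaker probe set, rc_AI169327_g_at, was below the signal filter and read 73.8, 72.5 and 22.7 at 6 months, then 16.4, 17.7 and 11.9 at 18 months, then 21.4, 22.8 and 15.2 at 30 months. There the older ages were low too, but replicate 3 of 6 months was as low as the arrays of 30 months.

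*Timp3* encodes the inhibitor that stays bound to the matrix and also blocks ADAM proteases. It read 284.7, 314.8 and 254.5 at 6 months, then 155.6, 266.8 and 307.5 at 18 months, then 286.6, 249.6 and 286.7 at 30 months. All ages overlapped, and the lowest value came from replicate 1 of 18 months. The mean was 274 ± 21.4 at 30 months against 285 ± 30.2 at 6 months (SD, n = 3 each). The log2 change was -0.05, with a 95% interval of -0.50 to 0.41. It was 0.02 after quantile normalization and 0.08 after centring each array on its median. At 18 months the log2 change was -0.24, and 0.01 without replicate 1 of 18 months.

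**Figure D2:**
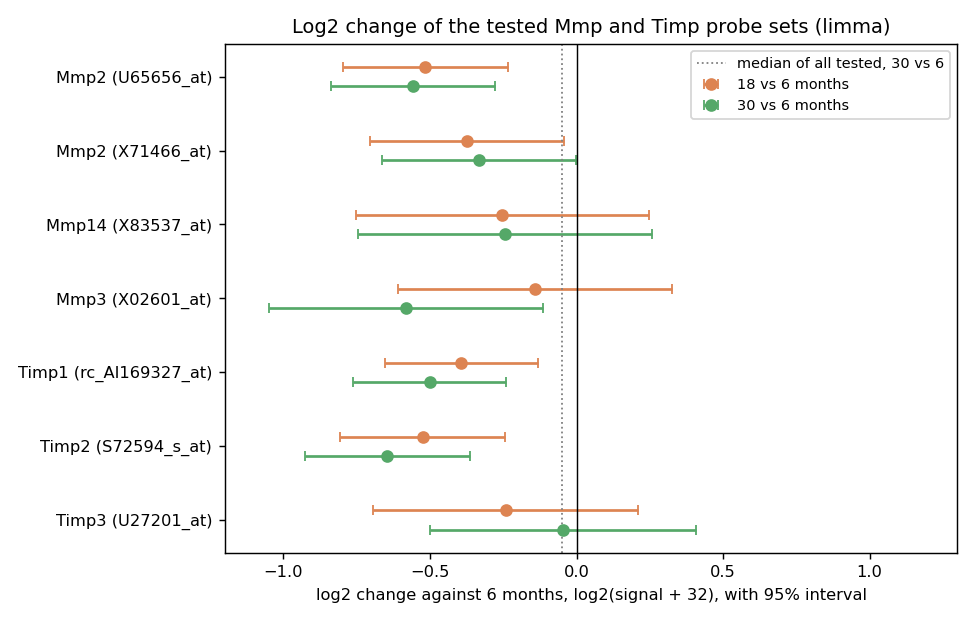
Log2 change of each tested probe set at 18 and 30 months against 6 months, on the log2(signal + 32) scale, with 95% intervals from limma that are not adjusted for the number of probe sets. The intervals of *Mmp14* and *Timp3* span 0 at both ages, and the dotted line marks the median of all tested probe sets at 30 months, -0.05.

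Over the family, 7 of the 9 probe sets, from 6 of the 7 genes, passed the signal filter. The log2 change of all 7 was below 0 at 18 months and again at 30 months, as it was for 57.7% and 58.8% of all tested probe sets. At 18 months 4 of these 7 lay entirely below 6 months and none entirely above, where 8.35% of all tested probe sets lay entirely below and 5.32% entirely above. At 30 months 5 of the 7 lay entirely below 6 months and none above, against 14.8% and 7.4% of all tested probe sets. They were both probe sets of *Mmp2* and those of *Mmp3*, *Timp1* and *Timp2*. The median log2 change of the 7 was -0.38 at 18 months and -0.50 at 30 months, against -0.04 and -0.05 over all tested probe sets. By limma, 0 of the 7 passed the adjusted threshold at 18 months, where 0.0763% of all tested probe sets did, and 4 had an unadjusted p under 0.05, all lower. At 30 months 0 passed, where 0.324% of all tested did, and 5 had an unadjusted p under 0.05, all lower. The corresponding shares of all tested probe sets with a lower value and an unadjusted p under 0.05 were 5.63% and 8.73%. In the test for any difference among the 3 ages 0 of the 7 passed, against 0.267% of all tested, and the lowest adjusted p was 0.208, for *Timp2*. A rule after the series design, a ratio of means over 1.7 without overlap, was met at 18 months by 0 of the 7 and 1.43% of all tested probe sets, and at 30 months by 1 of the 7, *Mmp3*, and by 2.23%. These shares moved with the scaling of the arrays. Changes below 0 made up 50.7% of all tested probe sets at 18 months and 51.9% at 30 months after quantile normalization, and 38.1% and 38% after centring each array on its median. Under either scaling all 7 were below 0 at 18 months and 6 of the 7 at 30 months, *Timp3* being the exception. At 30 months 4 of the 7 lay entirely below 6 months after quantile normalization, against 10.5% of all tested probe sets, and 4 of the 7 after centring each array on its median, against 6.45%. *Mmp2* (X71466_at) was the one that then overlapped. At 18 months the corresponding counts were 3 of 7 against 5.68%, and 3 of 7 against 3.76%. Both comparisons use the same 6-month arrays, so they are not independent of each other.

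Between 30 and 18 months none of the 7 tested probe sets was separated between these ages, where 4.18% of all tested lay entirely lower at 30 months and 3.18% entirely higher. By limma 0 passed at an adjusted p of 0.05 and 0 at an unadjusted p of 0.05, against 0.0191% and 3.2% of all tested probe sets. After quantile normalization and after median centring 1 of the 7, *Mmp3*, had an unadjusted p under 0.05 and was lower, as did 1.58% and 1.51% of all tested. *Mmp9*, which was not among the tested, was the one probe set separated between these ages. The log2 differences were -0.12 for *Timp2*, -0.11 for *Timp1*, 0.20 for *Timp3*, 0.01 for *Mmp14* and -0.44 for *Mmp3*. The 95% interval for *Mmp3* ran from -0.91 to 0.03 and that for *Timp2* from -0.40 to 0.16, so the data do not show that these levels were equal.

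The balance of proteases and inhibitors was described per array as the mean log2 signal of *Mmp2*, *Mmp14* and *Mmp3* minus that of *Timp1*, *Timp2* and *Timp3*, relative to the 6-month mean. *Mmp9* was left out for its weak signal. The protease mean was 0.13, -0.02 and -0.11 at 6 months, then -0.10, -0.54 and -0.28 at 18 months, then -0.35, -0.73 and -0.30 at 30 months. The inhibitor mean was 0.07, -0.01 and -0.06 at 6 months, then -0.54, -0.42 and -0.20 at 18 months, then -0.33, -0.40 and -0.47 at 30 months. Both sides were thus lower at 30 months than on any array of 6 months, and the inhibitors also at 18 months. Their difference was 0.07, -0.01 and -0.05 at 6 months, then 0.44, -0.12 and -0.07 at 18 months, then -0.03, -0.34 and 0.17 at 30 months. These values overlapped among all ages: the mean balance was 0.08 ± 0.31 at 18 months and -0.06 ± 0.26 at 30 months, against 0.00 ± 0.06 at 6 months (SD, n = 3 each). The highest balance was on replicate 1 of 18 months, the array with the lowest *Timp3* signal (155.6) and also the highest *Mmp3* signal (122.4). Without that array the balance at 18 months against 6 months was -0.10. As a score over chosen genes it was given no p-value.

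Pairs of genes were read as well, and some of them, such as *Timp2* and *Timp3*, lie on the same side of that balance. *Mmp2* minus *Timp2* differed between ages by less than the spread between arrays, at 0.01 ± 0.20 at 18 months and 0.09 ± 0.13 at 30 months, against 0.00 ± 0.18 at 6 months (SD of log2 differences, n = 3 arrays each). *Mmp14* minus *Timp2* was 0.27 ± 0.05 at 18 months and 0.40 ± 0.44 at 30 months, against 0.00 ± 0.26 at 6 months (SD, n = 3 each), with overlap between ages. *Timp2* minus *Timp3* was -0.63, -0.39 and -0.78 on the arrays of 30 months, against 0.13, -0.24 and 0.10 on those of 6 months. Those ages did not overlap, and neither did they for *Mmp2* minus *Timp3*, which lay between -0.57 and -0.45 at 30 months against -0.07 to 0.13 at 6 months. At 18 months both pairs overlapped with 6 months, with 0.32, -0.62 and -0.55 for *Timp2* minus *Timp3* and 0.48, -0.54 and -0.76 for *Mmp2* minus *Timp3*. *Mmp2* minus *Mmp14*, at -0.31 ± 0.32 at 30 months, and *Mmp2* minus *Timp1*, at -0.06 ± 0.13, overlapped with 6 months (SD, n = 3 each). The pairs that were separated at 30 months both include *Timp3*. How often pairs of other genes are separated was not counted. All pairs were described and not tested.

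**Figure D3:**
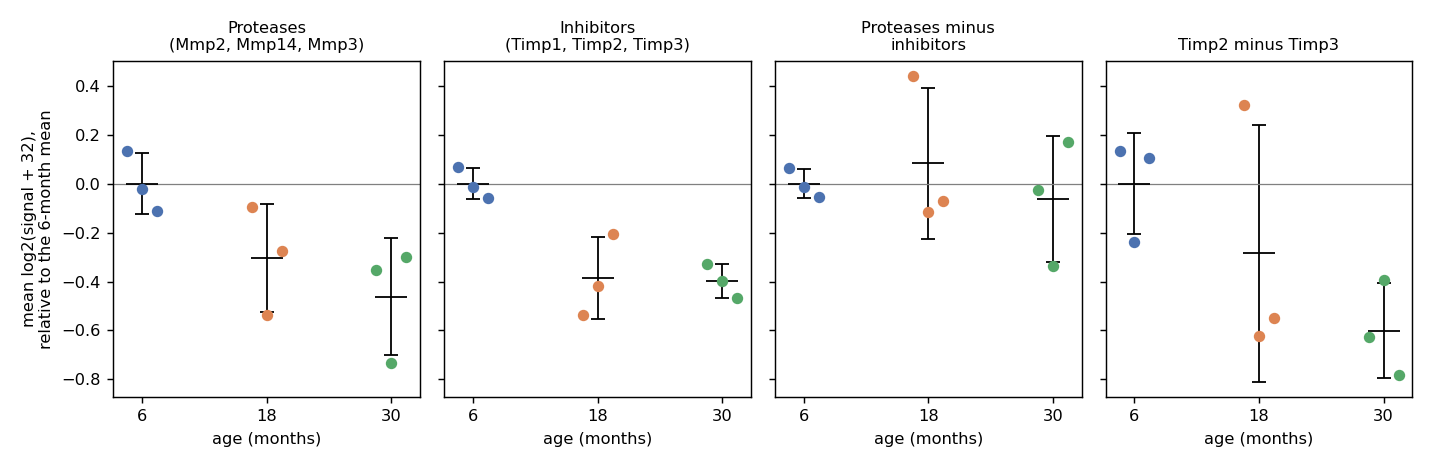
Mean log2(signal + 32) of 3 proteases, of 3 inhibitors, their difference, and *Timp2* minus *Timp3*, each relative to the 6-month mean, per array (points) with mean and SD of 3 arrays (bars). Both sides are lower at 30 months, their difference overlaps among ages, and *Timp2* minus *Timp3* is between -0.78 and -0.39 at 30 months.

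Other genes of matrix turnover were read from fixed lists. At 30 months 58.8% of all tested probe sets were below 6 months, and 0.324% passed the threshold in either direction. The list of collagen and basement membrane genes, whose products are substrates of metalloproteinases, also held fibronectin, elastin, proteoglycan and other matrix genes. Of its 17 tested genes 16 were below 6 months at 30 months, with a median log2 change of -0.39, and 4 fell past the threshold. These were the fibrillar collagen genes *Col1a2* (-1.35), *Col1a1* (-1.25), *Col3a1* (-1.42) and *Col5a2* (-1.05), with limma adjusted p between 0.00920 and 0.0418. In the 9 fits that left out 1 array the calls held in 6 for *Col1a2*, 4 for *Col1a1* and 1 each for *Col3a1* and *Col5a2*. The log2 change of *Timp2*, -0.65, and that of *Mmp2*, -0.56, were smaller than those of these 4 genes, a difference that was not tested. At 18 months 1 of the 17, *Col1a2*, fell past the threshold, where 0.0763% of all tested probe sets passed in either direction.

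The remaining lists had no gene past the threshold at either age. Of 8 other metalloproteinase genes on the array 3 were tested, with a median of -0.07 at 30 months. *Mmp11* (stromelysin 3) read 118 ± 18.0 at 30 months against 164 ± 27.1 at 6 months, and *Mmp7* (matrilysin) 101 ± 17.7 against 95.3 ± 42.1 (SD, n = 3 each). The collagenase genes *Mmp8* and *Mmp13*, below the filter, averaged 12.6 and 8.87 at 30 months against 29.6 and 18.4 at 6 months. Both signals were weak, and *Mmp8* varied widely between the arrays of 30 months. These genes were picked out after their values were seen. *Mmp10*, *Mmp12* and *Mmp16*, below the filter too, overlapped between 30 and 6 months. Of 5 tested inhibitors and surface partners all were below 6 months at 30 months, as were 58.8% of all tested probe sets. They ran from -0.37 for the hyaluronan receptor gene *Cd44* to -0.07, with a median of -0.12. Among them were *Bsg* (-0.10), the metalloproteinase inducer basigin, and the integrin gene *Itgb1* (-0.15). In the plasminogen activator list, 8 tested, the median was -0.10, with *Anxa2* at -0.20 and the C1 inhibitor gene *Serping1* at -0.003. Urokinase, *Plau*, the activator of plasminogen, was at -0.30 and its receptor *Plaur* at 0.58, both picked out after their values were seen.

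Among 10 tested ADAM, astacin and cathepsin genes the median log2 change at 30 months was -0.14. The lysosomal proteases *Ctsd* and *Ctsl* were at 0.20 and -0.16. Cathepsin K, *Ctsk*, a collagen-degrading protease, lay lowest at -0.83 and read 96.8 ± 28.8 at 30 months against 195 ± 28.7 at 6 months (SD, n = 3 each, limma adjusted p = 0.179). It too was named after its value was seen. The 16 tested regulators of metalloproteinase transcription had a median of -0.03, and the immediate early genes *Egr1* (-0.03) and *Jun* (-0.09) varied widely between arrays. *Tgfb1*, a cytokine that raises *Timp1* and collagen transcription in fibroblasts, read 215 ± 8.24 at 30 months against 123 ± 69.9 at 6 months (SD, n = 3 each, limma adjusted p = 0.334). It was also named after its value was seen. *Tgfb2* and *Tgfb3* of the same list went the other way, with log2 changes of -0.415 and -0.235 at 30 months (limma adjusted p = 0.702 and 0.526).

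**Figure D4:**
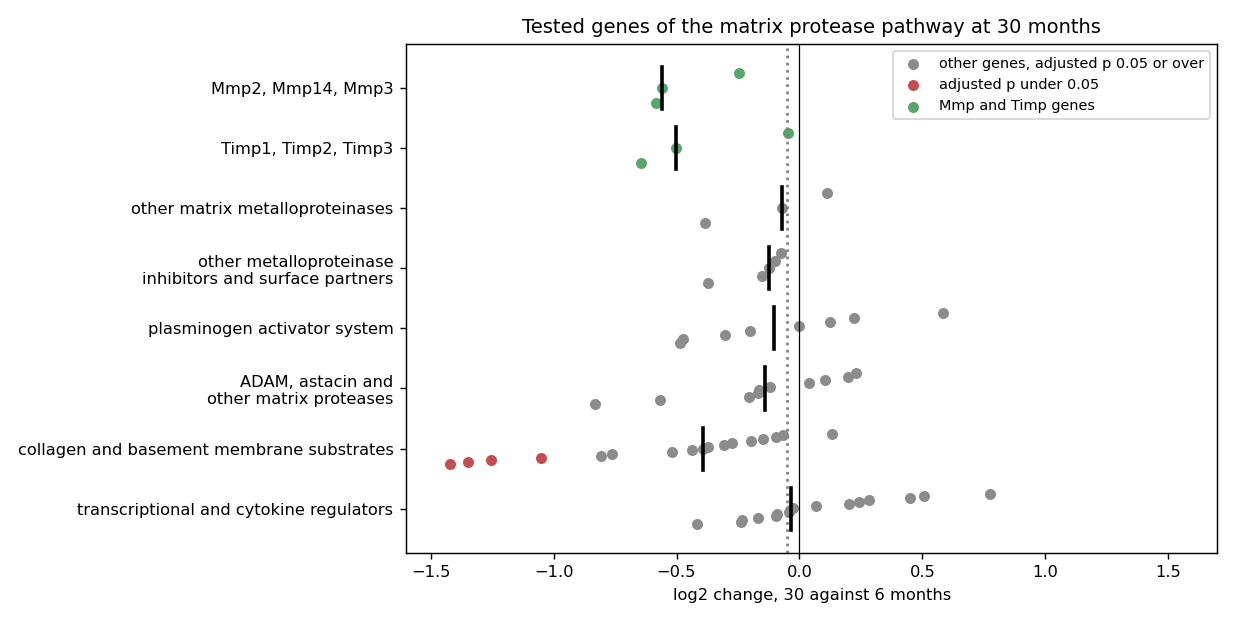
Log2 change at 30 against 6 months of every tested gene in the matrix protease lists, 1 point per gene, with the list median (black bar) and the median of all tested probe sets (dotted line). The 4 genes past the threshold are fibrillar collagens, and the *Mmp* and *Timp* genes lie between -0.65 and -0.05.

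Markers of cell types that can make these enzymes were read beside them. Over all tested probe sets, 58.8% were below 6 months at 30 months. Of 13 tested fibroblast markers 12 were below, with a median of -0.37. The summed signal of the 14 on the array was 19610 to 24260 at 6 months, 14920 to 16120 at 18 months and 16470 to 17140 at 30 months. That list shares *Col1a1*, *Col1a2* and *Col3a1* with the collagen list. The other 10 tested markers ran from -0.50 to 0.01 at 30 months and none passed the threshold. Lowest were the collagen cross-linking enzyme gene *Lox* (-0.50), *S100a4* (-0.47), the collagen-binding proteoglycan gene *Lum* (-0.44) and *Postn* (-0.37). *Lox*, *Lum*, *Postn* and the receptor gene *Pdgfra* (-0.17) lay entirely below 6 months, as did 14.8% of all tested probe sets. *Loxl1* was at -0.25, *Thy1* at -0.11, decorin, *Dcn*, at -0.10, *Fbln5* at -0.04 and vimentin, *Vim*, at 0.01. Of the neutrophil and mast cell markers 4 were tested, all of them mast cell protease genes (*Cpa3*, *Cma1*, *Tpsb2* and *Tpsab1*), and all 4 were below 6 months at 30 months, with a median of -0.48, while the 10 on the array summed to 1112 to 1417 at 6 months, 800.0 to 1149 at 18 months and 847.5 to 998.2 at 30 months. Of 5 tested macrophage markers 2 were below, and 9 summed to 1676 to 1864 at 6 months, 1327 to 1654 at 18 months and 1630 to 2228 at 30 months. Of 7 tested Schwann cell and nerve markers 6 were below, with a median of -0.30, and none passed the threshold. Among these 7, 5 lay entirely below 6 months, against 14.8% of all tested probe sets. The 13 skeletal muscle markers were all above 6 months at 30 months, with a median of 0.29. The part of these cell types in the lower *Mmp* and *Timp* signals was not tested, and in bulk tissue fewer cells of a type and less RNA per cell cannot be told apart.

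The genes most alike to each family member were found by Pearson correlation over the 9 arrays, as a description, since all arrays share the grouping by age. *Timp1* was most like *Timp2* (r = 0.964), then *Col1a1* (0.957) and *Col3a1* (0.951). *Timp2* was most like *Col3a1* (0.973), *Col5a2* (0.972) and *Dbn1* (0.969), which encodes the actin-binding protein drebrin. *Mmp2* was closest to a probe set of the giant thin-filament gene *Neb* (0.980), to *Serinc3* (0.950) and to the folate carrier *Slc19a1* (0.943). No collagen gene was among its closest 3. *Mmp14* was closest to *Emb* (0.962), *Slc25a1* (0.930) and *Kcnh4* (0.915), and *Mmp3* to the serotonin transporter *Slc6a4* (0.952), a probe set of *Stk39* (0.951) and the utrophin gene *Utrn* (0.947). *Timp3* was closest to *Cttn* (0.947), *Aldh5a1* (0.927) and *Grip2* (0.926), none of which was among the closest of the other inhibitors. The likeness was not tested.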

How the data were processed

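Posterior cricoarytenoid muscle RNA from rats of 3 ages was measured on 9 arrays. The authors deposited signal intensity on a linear scale from MAS5, per the submitters' processing notes, for 8799 probe sets; the series design text names Microarray Suite 5.0 and pools of 4 animals. Neither the software release nor the scaling target is given in the sources used here, nor whether pools of an age were separate cohorts, so p-values measure the spread between pools. The table had 0 missing values and signals from 0.1 to 48487.6.

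After removal of 59 controls, log2(signal + 32) of the upper 60% of probe sets by mean, 5244 of 8740, was fitted with limma 3.58.1 in R 4.3.3 (1 mean per age, 6 residual and 3.69 prior degrees of freedom). All p-values are two-sided, with Benjamini-Hochberg adjustment across every tested probe set. Gene names came from the platform annotation, which gives 1 symbol for 7006 probe sets, several for 308 and no symbol for 1426. Of these 7006 entries 6985 matched RefSeq gene IDs of GRCr8, and 0 symbols differed. A gene in a list stands for the probe set of highest mean. Precision is limited by the number of arrays.

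The genes, lists and tests were chosen with earlier results of these data known. The rule named all *Mmp* and *Timp* probe sets, from each pathway list up to 4 genes that passed, otherwise the 2 of highest signal, and 3 most alike genes per member. Lists of cell type markers also covered endothelial, smooth muscle, Schwann cell, adipocyte and epithelial genes, with medians at 30 months of -0.08, -0.01, -0.30, -0.004 and -0.19 over 4, 6, 7, 6 and 1 tested genes. The code of the fit was checked on simulated data with independent noise for each probe set, and the share of changes it recovered is not reported here. Alternatives were other pseudocounts, filters, scalings and variance models, a replicate block, and leaving out each array.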

Additional observations from a re-analysis of the deposited data

How the results depend on the processing

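Over 17 alternatives the log2 change of *Timp2*, *Timp1* and *Mmp2* (U65656_at) against 6 months stayed negative at both ages: at 30 months it was -0.70 to -0.52 for *Timp2* (adjusted p = 0.0414 to 0.291), -0.56 to -0.37 for *Timp1* and -0.59 to -0.43 for *Mmp2*. At 30 months 1 of these probe sets, *Timp2*, passed with an intensity trend, and 1, *Mmp3*, met the fold rule; under all other settings 0 passed. *Timp3* at 30 months turned to 0.018 after quantile normalization and 0.082 after median centring. Median centring moved the median of all probe sets by 0.10 at 18 months and 0.13 at 30 months. Leaving out 1 array also turned signs, with ranges over the 9 such fits of -0.116 to 0.022 for *Timp3* at 30 months, -0.415 to 0.013 for *Timp3* and -0.290 to 0.056 for *Mmp3* at 18 months. Between 30 and 18 months they were -0.059 to 0.369 for *Timp3*, -0.129 to 0.217 for *Mmp14*, -0.113 to 0.079 for *Mmp2* (U65656_at) and -0.061 to 0.147 for *Mmp2* (X71466_at). The balance moved by less than the spread between arrays in every alternative, with ranges when 1 array was left out of -0.10 to 0.18 at 18 months, -0.18 to 0.07 at 30 months and -0.26 to 0.03 between those ages. Over all tested probe sets limma called 4 at 18 months, but 8 with the larger pseudocount, 7 with median centring and 8 with an intensity trend. It called 17 at 30 months and 1 between 30 and 18 months, where it called 4 with no filter and 0 with the larger pseudocount, the upper 40% or an intensity trend. For any difference among ages it called 14, but 6 with a pseudocount of 8, 6 with no filter and 9 with quantile normalization. Without 1 array these counts were 0 to 5, 0 to 20, 0 to 2 and 0 to 11. By scaling, the split of higher to lower calls at 30 months was 8 to 9, but 9 to 6 after quantile normalization and 10 to 5 after median centring, and at 18 months 2 to 2, 4 to 2 and 5 to 2. The cause was not tested. With the replicate number as a block the counts were 6, 11, 0 and 4 and no *Mmp* or *Timp* probe set passed. Same-numbered arrays deviated together at r over 0.1 in only 4 of 9 pairs (-0.02 to 0.26), so they were not taken as paired, although 8 of 9 arrays correlated best with their own number.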
